A study of Mus musculus with 4 samples.

Results

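The EGR and NR4A immediate early factors are a set of 10 genes that cells switch on, or use to switch others on, soon after a receptor is engaged. The set was Egr1, Egr2 and Egr3, their corepressors Nab1 and Nab2, the receptors Nr4a1, Nr4a2 and Nr4a3, and the regulators Ier2 and Srf. Members were chosen by name: every probe set whose array annotation names a single gene, and that gene a member, was taken, which gave 22 of the 45037 probe sets of the array and all 10 genes of the 18193 that it names. The arrays were hybridised with RNA from mouse macrophages grown from bone marrow for 7 days in medium with 20% L-cell conditioned medium, then kept overnight with interferon-gamma (100 U/ml) as a priming step and washed. They were then stimulated for 2 h with lipopolysaccharide (LPS, a bacterial ligand of TLR4) at 10 ng/ml, or with LPS at 10 ng/ml plus immune complexes (antibody bound to antigen, which engages Fc gamma receptors). Each group had 2 arrays, replicates 1 and 2, and no strain, age or pooling of mice is given in the labels. All 4 samples were primed, and neither unstimulated cells nor another time were analysed here, so the values compare the stimulations at 2 h and do not measure induction by LPS itself. The labels do not say that replicates came from separate cultures, so a p-value here reflects how far these 4 arrays vary, and that variation may be technical only.

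EGR proteins are zinc finger transcription factors whose genes are transcribed within minutes of a signal through ERK, when serum response factor (SRF) and its ternary complex partners are already bound at CArG boxes in their promoters. NAB proteins bind EGR factors and repress their targets, and Nab2 is itself an EGR target, which closes a feedback loop. NR4A proteins are orphan nuclear receptors with no known natural ligand, so their activity is set largely by how much of them is made, and in macrophages LPS is a well-known inducer. Their genes are classical targets of CREB, which binds the cAMP response element (CRE), and they respond to cAMP, calcium and ERK signals.

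The promoters of the 3 NR4A genes are shown because these genes had similar readings here, and those of Egr2 and Srf because CArG boxes lie in them. RefSeq's table for GRCm38.p6 gave windows of 250 bases before to 50 after a start site for 7 of the 10 members. No window was in the table for Egr1, Egr3 and Ier2. Of 5 windows for Egr2, partly overlapping, 1 is printed, chosen for its motif matches. Capitals mark the CRE core, TGACG on either strand, and the CArG box, and no 2 marked matches overlap. The windows are Nr4a1 at chr15:101266596-101266895 on the plus strand, Nr4a2 at chr2:57123954-57124253 on the minus strand, Nr4a3 at chr4:48045055-48045354 on the plus strand, Egr2 at chr10:67537619-67537918 on the plus strand and Srf at chr17:46556113-46556412 on the minus strand, each written 5′ to 3′ on the strand of its gene.
Nr4a1: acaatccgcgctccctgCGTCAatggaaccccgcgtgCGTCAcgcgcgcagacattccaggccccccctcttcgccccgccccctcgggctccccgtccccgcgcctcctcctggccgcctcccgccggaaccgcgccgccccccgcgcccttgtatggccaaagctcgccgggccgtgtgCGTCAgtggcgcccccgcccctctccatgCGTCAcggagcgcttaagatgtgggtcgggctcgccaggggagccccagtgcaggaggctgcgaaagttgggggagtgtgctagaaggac
Nr4a2: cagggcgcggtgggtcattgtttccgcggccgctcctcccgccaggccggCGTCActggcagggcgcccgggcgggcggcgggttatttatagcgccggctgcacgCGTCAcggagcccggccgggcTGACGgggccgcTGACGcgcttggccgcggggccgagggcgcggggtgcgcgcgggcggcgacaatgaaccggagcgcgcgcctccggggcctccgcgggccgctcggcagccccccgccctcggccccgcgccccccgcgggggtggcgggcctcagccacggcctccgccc
Nr4a3: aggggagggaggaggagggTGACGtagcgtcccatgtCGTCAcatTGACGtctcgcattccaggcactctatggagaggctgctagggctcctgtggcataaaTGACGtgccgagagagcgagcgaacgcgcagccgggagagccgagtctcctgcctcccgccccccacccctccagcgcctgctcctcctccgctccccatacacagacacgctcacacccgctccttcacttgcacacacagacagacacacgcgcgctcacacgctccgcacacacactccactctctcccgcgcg
Egr2: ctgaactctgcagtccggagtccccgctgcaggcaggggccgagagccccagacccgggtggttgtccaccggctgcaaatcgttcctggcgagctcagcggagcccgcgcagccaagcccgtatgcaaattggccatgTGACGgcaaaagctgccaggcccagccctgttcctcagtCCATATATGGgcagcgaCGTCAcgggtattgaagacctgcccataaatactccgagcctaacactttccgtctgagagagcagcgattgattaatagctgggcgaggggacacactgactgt
Srf: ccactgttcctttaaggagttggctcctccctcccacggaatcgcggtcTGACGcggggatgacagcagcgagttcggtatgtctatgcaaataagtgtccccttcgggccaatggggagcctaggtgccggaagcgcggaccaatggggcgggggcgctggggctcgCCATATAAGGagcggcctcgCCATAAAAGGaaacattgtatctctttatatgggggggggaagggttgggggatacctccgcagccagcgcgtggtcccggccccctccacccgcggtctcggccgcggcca

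Each of the 3 NR4A windows holds 4 CRE cores. Among all 32851 windows of the table, 20.8% hold at least 1 core and 0.231% hold 4 or more. In Nr4a1 the cores start at -233, -213, -69 and -40 from the start site, in Nr4a2 at -200, -144, -123 and -111, and in Nr4a3 at -231, -213, -205 and -147. The full CRE, TGACGTCA, which holds a core on each strand, is in 1.79% of windows and in none of the 7 members' windows. A CArG box is in 1.63% of windows. Srf has 2, at -82 and -62, the Egr2 window shown has 1 at -72, with CRE cores at -111 and -55, and none is in the NR4A or NAB windows. The EGR site GCGNGGGCG, found in 5.55% of windows, has 1 match each in Nr4a1, Nr4a2 and Srf and 3 in Nab1, a number that 0.195% of windows reach. The NBRE, AAAGGTCA, at which NR4A proteins bind as monomers, has no match in the members' windows and is in 1.51% of all. These matches describe letters in a window and not bound sites.

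**Figure D1:**
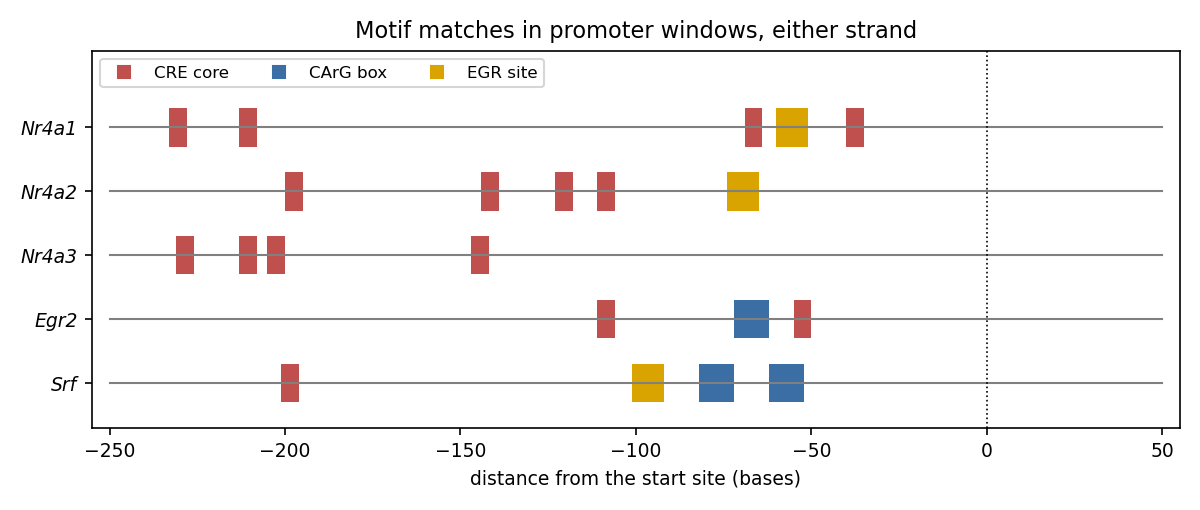
Motif matches in the promoter windows of Nr4a1, Nr4a2, Nr4a3, Egr2 and Srf. The horizontal axis is the distance in bases from the start site (dotted line), each row is a window of 300 bases, and coloured boxes are matches on either strand. Each NR4A row carries 4 CRE cores and no CArG box, while Srf carries 2 CArG boxes and Egr2 carries 1.

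The arrays had a common trimmed mean signal of 500, but replicate 1 of the LPS plus immune complexes group stood apart at low signals. Its median signal was 155.4 and its 5th percentile 28.1, against medians of 68.2 to 88.3 and 5th percentiles of 3.3 to 7.9 on the other 3 arrays. Over tested probe sets its log2 signals correlated at 0.89 with replicate 2 of its group, and at 0.91 and 0.87 with LPS replicates 1 and 2. Immune complex replicate 2 correlated at 0.93 and 0.97 with those LPS arrays, which correlated at 0.93 with each other. The arrays thus did not group by stimulation. All 8 macrophage markers looked for, Adgre1, Cd14 and Csf1r among them, were bright enough to test. Their summed signals were 152219 and 186681 in the LPS group and 133083 and 150410 with immune complexes. The log2 fold change was below 0 in 6 of them and above 0 in 2. Mertk had the largest, at -1.03, with overlapping readings of 8525.9 and 3206 for LPS alone against 3476.3 and 1857.9. The 26 markers of T, B and NK cells, granulocytes, dendritic cells, fibroblasts, mast cells and erythroid cells that matched summed to 2525 and 2223 with LPS and to 4664 and 2564 with immune complexes, with no marker at 0. The sum was highest on immune complex replicate 1. The summed signal of the 5 granulocyte markers among them was instead higher on both immune complex arrays, 775 and 805 for LPS alone against 1233.9 and 1345.6, most of it from S100a8 at 540.8 and 504.7 against 871.3 and 1137.6. Elane was also higher on both, Mpo was lower on both, and Camp and Ltf overlapped. Elane and Ltf were too dim to be tested. The part of these markers in the results below was not tested. In such bulk RNA a lower share of cells expressing a gene and less RNA per cell cannot be told apart. With 2 arrays per group, the number of arrays limits the precision of every value.

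Of the 10 members, 7 had a higher mean level with immune complexes and 3 a lower one, and none passed the test over all probe sets. The brightest tested probe set stood for a gene, and fold changes are differences of mean log2(signal + 32) between LPS plus immune complexes and LPS, with limma's standard error (SE). The threshold was a limma adjusted p under 0.05 over 27022 probe sets, and 0.0621% of the 12891 tested genes passed it. At an unadjusted limma p under 0.05, 4 members were higher (Egr1, Egr3, Nr4a1 and Nr4a3), against 1.99% of all tested genes, and 1 was lower (Ier2), against 1.14%. Without immune complex replicate 1 the log2 fold changes of those 4 fell to 0.64, 0.64, 0.47 and 0.85, and Ier2 was at -1.70. In 6 members both immune complex arrays read above both LPS arrays, as in 13.2% of tested genes, and in 2 both read below, as in 13.1%. The members' median log2 fold change was 0.90, against 0.05 over all tested genes. In 7 members immune complex replicate 1 was the highest of the 4, as it was in 39.9% of tested genes, and in all 10 it read above replicate 2 of its group, as in 55.4% of tested genes. Values without that array are therefore given for each member and for each of the lists below.

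**Figure D2:**
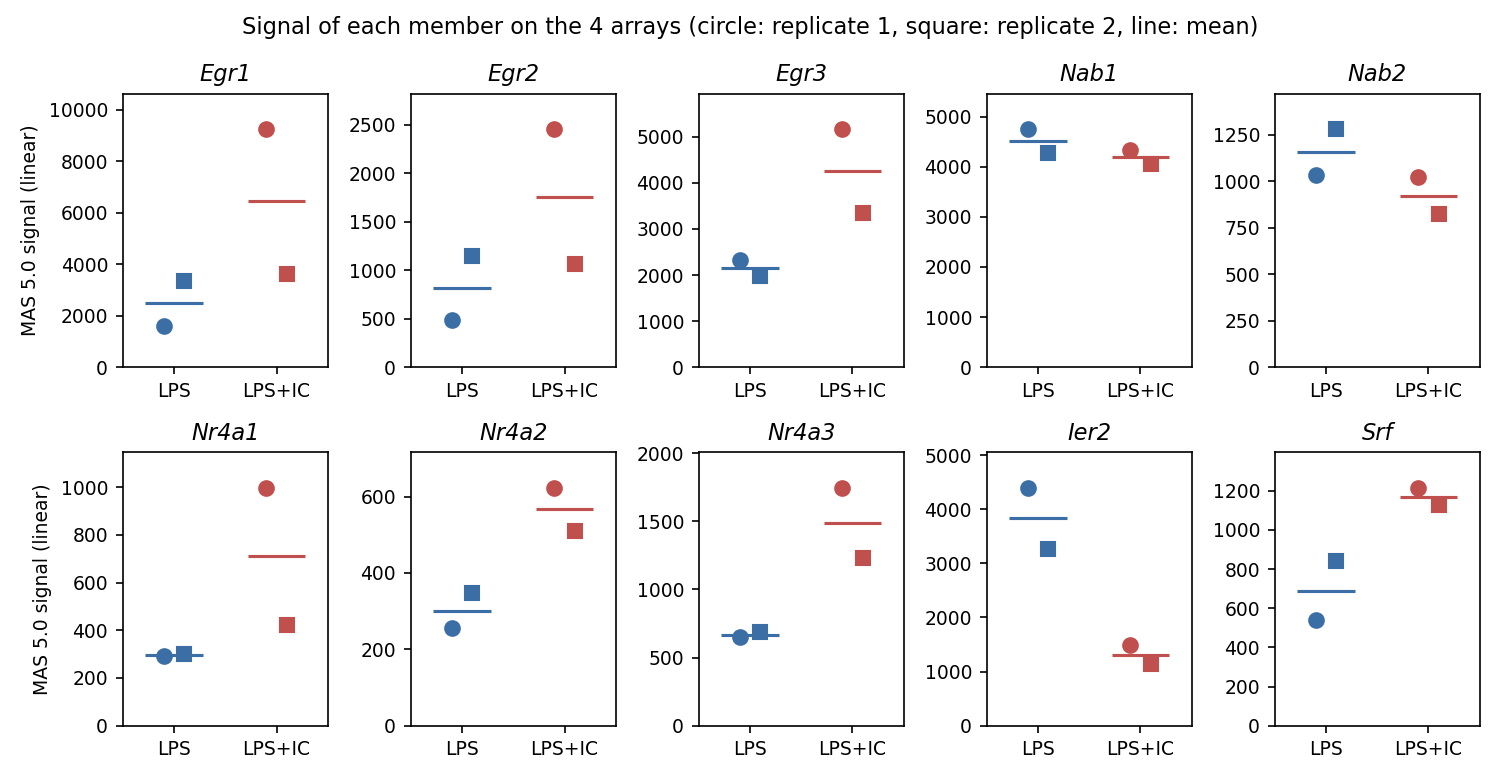
MAS 5.0 signal (vertical axis, linear, from 0) of the brightest probe set of each member on the LPS and LPS plus immune complexes (LPS+IC) arrays. Circles are replicate 1, squares replicate 2 and lines the mean of 2 arrays. The EGR and NR4A genes had their highest reading on LPS+IC replicate 1, and both LPS+IC readings of Ier2, 1485.3 and 1143.8, lay below both LPS readings.

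The 3 EGR activators had higher mean levels with immune complexes, with a median log2 fold change of 1.07, and the arrays of a group lay further apart for Egr1 and Egr2 than for Egr3. Egr1, the founding member and a broad activator of growth and inflammatory genes, had signals of 1596.1 and 3355.8 on the LPS arrays and of 9239.7 and 3633.7 on the immune complex arrays. The groups did not overlap, yet the lowest immune complex reading was only 1.08 times the highest LPS reading, while the most distant arrays differed 5.79-fold. The log2 fold change was 1.31 ± 0.47 (SE, n = 2 arrays per group) with a limma adjusted p = 1. It was 1.84 without LPS replicate 2, 0.78 without LPS replicate 1, 0.64 without immune complex replicate 1 and 1.98 without immune complex replicate 2.

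Egr2, known as Krox20 and needed in myeloid and Schwann cells, had signals of 487.7 and 1150.9 on the LPS arrays and of 2455.8 and 1064.4 on the immune complex arrays. Its groups overlapped, since the higher LPS reading exceeded the lower immune complex reading. Its log2 fold change was 1.07 ± 0.50 with a limma adjusted p = 1. The other Egr2 probe set had signals of 522.8 and 479.1 on the LPS arrays and of 2424.2 and 553.1 on the immune complex arrays, a log2 fold change of 1.17 ± 0.57. Both probe sets were therefore highest on immune complex replicate 1. On replicate 2 the brightest lay between its LPS readings, and the other lay just above both of its own. The log2 fold change was 0.48 without either LPS replicate 1 or immune complex replicate 1, and 1.67 without either of the other arrays.

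Egr3, which acts with Egr2 in restraining lymphocyte activation, had signals of 2323.7 and 1978.5 on the LPS arrays and of 5164.9 and 3348.6 on the immune complex arrays. Both immune complex arrays lay above both LPS arrays, by between 1.44-fold and 2.61-fold. The log2 fold change was 0.95 ± 0.35 with a limma adjusted p = 1, and leaving out any 1 array gave between 0.64 and 1.26. A much dimmer Egr3 probe set overlapped, with 138.8 and 54.3 for LPS alone against 305.7 and 67.1. Of the 3 EGR genes, Egr3 had the widest gap between the groups.

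The corepressors of the EGR factors did not share these readings. Nab1 had signals of 4749.9 and 4275 on the LPS arrays and of 4343.6 and 4046.7 on the immune complex arrays, with overlapping groups and a log2 fold change of -0.10 ± 0.30. Its 2 dimmer probe sets had log2 fold changes of -0.20 ± 0.45 and -0.53 ± 0.69. Nab2, the NAB gene that EGR factors are known to induce, had signals of 1034.3 and 1279.1 on the LPS arrays and of 1019.5 and 821.5 on the immune complex arrays. Both immune complex arrays were lower than both LPS arrays, the closest pair by a ratio of 0.99, and the log2 fold change was -0.32 ± 0.38. Without immune complex replicate 1 the values were -0.15 for Nab1 and -0.47 for Nab2. The limma adjusted p was 1 for both genes.

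The 3 NR4A receptors all had immune complex arrays above both LPS arrays and a median log2 fold change of 1.06. Nr4a1 (Nur77), the receptor best known for limiting inflammatory gene expression in macrophages, had signals of 293.9 and 301.7 on the LPS arrays and of 998.4 and 423.8 on the immune complex arrays. Its LPS arrays were close, whereas its immune complex arrays differed 2.36-fold. Its log2 fold change was 1.06 ± 0.47 with a limma adjusted p = 1, and it was 0.47 without immune complex replicate 1 and 1.64 without the other.

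Nr4a3 (Nor1) had signals of 648 and 687.3 on the LPS arrays and of 1746.5 and 1227 on the immune complex arrays. The groups were separated by at least 1.79-fold in every pair of arrays, the widest gap among the members with higher levels. The log2 fold change was 1.10 ± 0.38 with a limma adjusted p = 1, and from 0.85 to 1.35 with an array left out. The other 2 Nr4a3 probe sets were too dim to be tested, and none of their readings exceeded 99.2.

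Nr4a2 (Nurr1), a regulator of dopamine neurons that macrophages also induce, has 6 probe sets on the array, of which 5 passed the filter. The brightest had signals of 256.4 and 346.3 on the LPS arrays and of 623.3 and 510.4 on the immune complex arrays. The groups were separated by at least 1.47-fold. Its log2 fold change was 0.85 ± 0.42 with a limma adjusted p = 1, and 0.72 without immune complex replicate 1. The other 4 tested probe sets had log2 fold changes of 0.78, 1.09, 0.29 and 0.89, with groups apart in 2 of them. They share a transcript and are not independent readings.

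**Figure D3:**
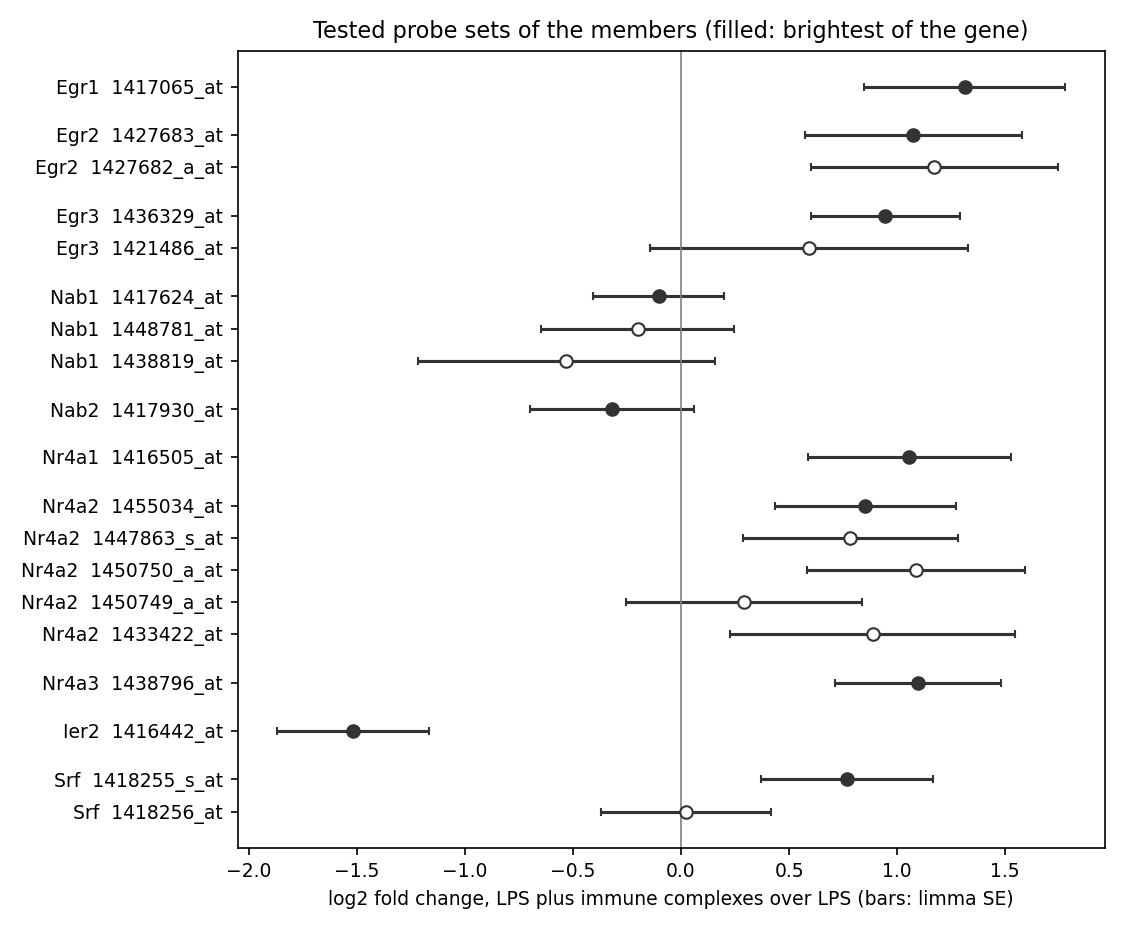
Log2 fold change of LPS plus immune complexes over LPS (horizontal axis) for the 19 tested probe sets of the members, with limma's SE as bars and filled points for the brightest probe set of each gene. All tested Egr and Nr4a probe sets lie above 0, all Nab1 and Nab2 probe sets and Ier2 lie below it, and the Srf probe sets are at 0.77 and 0.02.

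Ier2, a small nuclear protein whose gene is an immediate early gene in many cells, went the other way. It had signals of 4399.7 and 3267.6 on the LPS arrays and of 1485.3 and 1143.8 on the immune complex arrays. Every immune complex reading was between 0.26 and 0.45 of every LPS reading, and the readings within each group lay near each other. Its log2 fold change was -1.52 ± 0.35, with a limma adjusted p = 0.269, the lowest of the 10 members. Only 0.14% of tested genes had a lower log2 fold change. With an array left out it lay between -1.73 and -1.30, and it was -1.70 without immune complex replicate 1. In these macrophages Ier2 and the EGR and NR4A genes, all classed as immediate early genes, had log2 fold changes of opposite sign, although neither direction passed the threshold.

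Srf, the factor that holds the EGR promoters ready, gave readings that depended on the probe set. The brighter one had signals of 537.5 and 842 on the LPS arrays and of 1215.8 and 1125.3 on the immune complex arrays, without overlap and with a log2 fold change of 0.77 ± 0.40. The other had signals of 650.3 and 884.9 on the LPS arrays and of 736.9 and 807 on the immune complex arrays, with overlap and a log2 fold change of 0.02 ± 0.39. With an array left out the brighter one ranged from 0.46, without LPS replicate 1, to 1.08, without LPS replicate 2, and it was 0.71 without immune complex replicate 1. The brighter probe set has an ID that ends in _s_at, a type that can bind transcripts of several genes. The limma adjusted p was 1 for both.

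**Figure D4:**
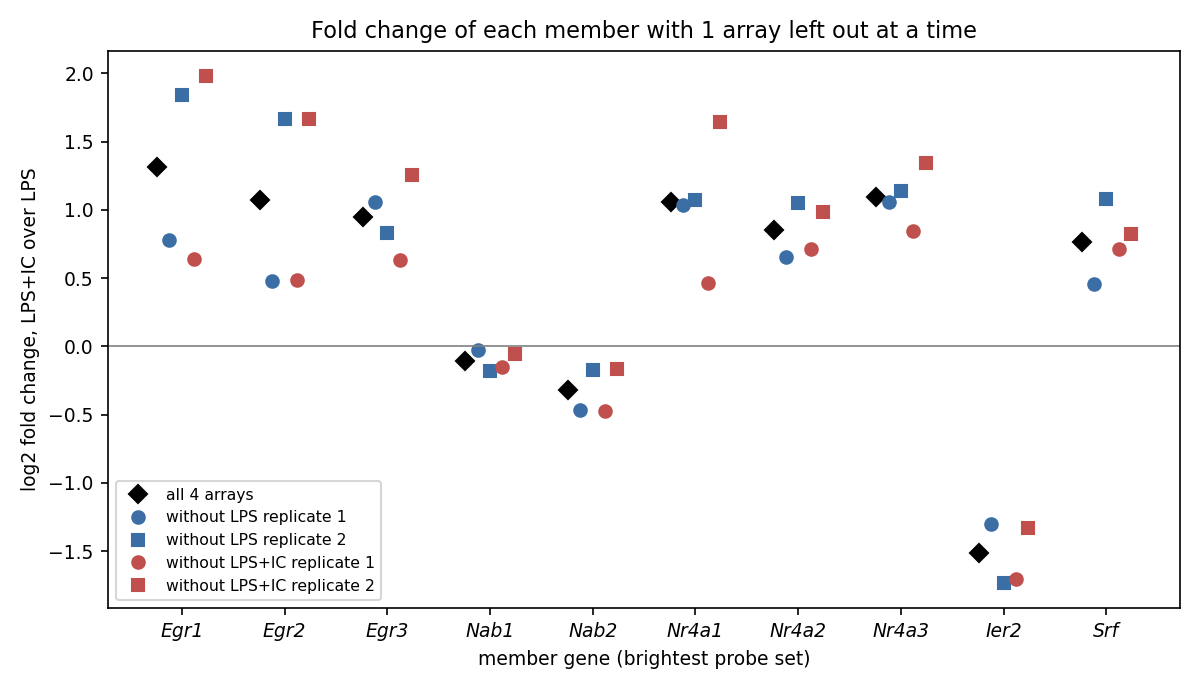
Log2 fold change of each member (vertical axis) with all 4 arrays (black diamonds) and with a single array left out (coloured points, by group and replicate). Every point keeps the sign of its member, which is fixed in advance where the groups do not overlap. Egr1, Egr2 and Nr4a1 spread the most, from 0.64 to 1.98, 0.48 to 1.67 and 0.47 to 1.64, while Ier2 stays between -1.73 and -1.30.

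The signals upstream and the genes around these factors were described through 6 lists, and no gene of them passed the threshold with all 4 arrays. Of 30 other immediate early genes 29 were tested, 23 with a log2 fold change above 0, a median of 0.60 and 11 with immune complex arrays above both LPS arrays, against 13.2% of all tested genes. In 2 both immune complex arrays lay below, against 13.1%. At an unadjusted limma p under 0.05, 9 were higher, against 1.99% of all tested genes, and 1 was lower, against 1.14%. Without immune complex replicate 1 the median over the 28 genes then tested was 0.39. The largest values were those of Plk2, a polo-like kinase, at 2.65 ± 0.60, and of the AP-1 genes Fosl1, Fosb and Fos at 1.90 ± 0.44, 1.54 ± 0.60 and 1.33 ± 0.42. Plk2 had signals of 2740.4 and 767 on the LPS arrays and of 17111 and 5032.6 on the immune complex arrays. Its log2 fold change was 1.77 without immune complex replicate 1, 3.54 without LPS replicate 1 and 1.75 without LPS replicate 2. Without immune complex replicate 1 Fosl1 had 1.52 and Fos 0.73, and Fosb had 0.66 without LPS replicate 1. The 1 gene of the list that was lower at that p was Dusp2, a phosphatase of MAP kinases, at -0.65 ± 0.28, named after its value was seen because it was alone.

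The factors that drive Srf and Egr transcription had no common direction. The 5 SRF cofactors, which join SRF at its sites, had a median log2 fold change of 0.57, with Elk1 at 0.82 ± 0.57, Mrtfa at 0.69 ± 0.55, Mrtfb at 0.57 ± 0.45 and Elk3 at -0.39 ± 0.34. Only in Elk1 did the groups not overlap. The median was 0.39 without immune complex replicate 1 and -0.18 without LPS replicate 1, where Mrtfa was at -0.20. Of 18 genes of ERK, MSK and calcium signalling 13 matched and were tested, with a median of -0.10, or -0.08 without immune complex replicate 1. Rps6ka5, which encodes the kinase MSK1 that phosphorylates CREB, had the largest value, at -1.10 ± 0.41, with readings of 894 and 616.8 for LPS alone against 327.9 and 329.7. Creb1 itself had signals of 1031.4 and 2251.3 on the LPS arrays and of 880.2 and 1343.2 on the immune complex arrays, a log2 fold change of -0.48 ± 0.44. Nfatc1 had -0.71 ± 0.42 and Mef2d, a factor at Nr4a1 promoters, 0.58 ± 0.40. Creb1 had 0.07 without LPS replicate 2, -1.03 without LPS replicate 1, and -0.18 and -0.77 without immune complex replicates 1 and 2. These are transcript levels and say nothing of kinase activity.

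Genes downstream of the factors were also divided. Of 13 SRF targets of the cytoskeleton 11 were tested, with a median log2 fold change of -0.08 and values from Actb at -0.30 ± 0.21 to Tpm1 at 0.51 ± 0.39. The median was 0.16 without immune complex replicate 1. Vcl and Zyx, which encode the adhesion proteins vinculin and zyxin, had 0.36 ± 0.37 and 0.30 ± 0.31. Of 12 genes described as EGR1 targets 9 matched and were tested, with a median of 0.06, or 0.23 without immune complex replicate 1, and 5 above 0. F3, which encodes tissue factor, had 1.68 ± 0.63, with signals of 827.3 and 206.9 on the LPS arrays and of 2507.9 and 792.6 on the immune complex arrays. Plau, the urokinase, had 1.42 ± 0.66, while Fn1 (fibronectin) had -1.05 ± 0.65 and the adhesion molecule Icam1 -0.74 ± 0.25. Without immune complex replicate 1 F3 had 0.86, Plau 0.38 and Fn1 -0.22. Without LPS replicate 1, which leaves a single LPS array, F3 had 2.60 and Plau 2.38. F3 and Plau overlapped between the groups, and Icam1 and Fn1 lay lower on both immune complex arrays. Of 8 partners and corepressors of NR4A and NAB proteins 6 were tested, with a median of 0.22, or 0.24 without immune complex replicate 1 and -0.10 without LPS replicate 1. The retinoid X receptors Rxra and Rxrb, which pair with Nr4a1 and Nr4a2, had 0.79 ± 0.48 and 0.44 ± 0.40, and the chromatin remodellers Chd3 and Chd4 0.42 ± 0.44 and -0.62 ± 0.40.

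**Figure D5:**
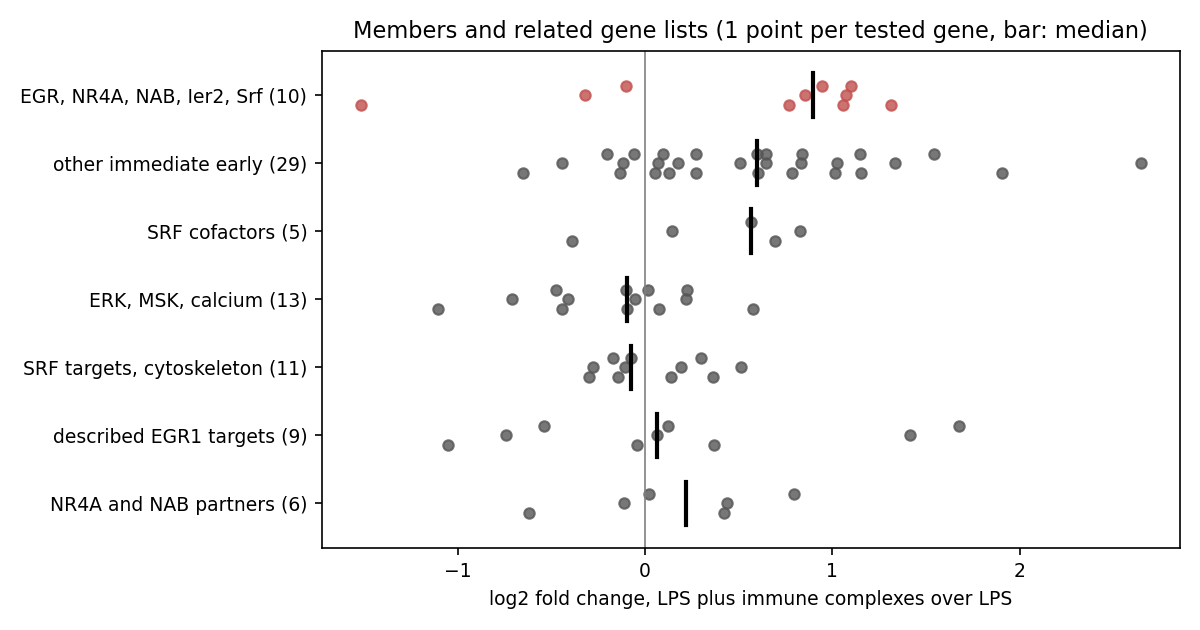
Log2 fold change of LPS plus immune complexes over LPS (horizontal axis) for the members and for each tested gene of 6 related lists, 1 point per gene, with the median as a bar and the number of genes in brackets. The medians are 0.90 for the members, 0.60 for the other immediate early genes and 0.57 for the SRF cofactors, and lie between -0.10 and 0.22 for the other lists.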

How the data were processed

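RNA of the 4 samples was hybridised to a mouse Affymetrix expression array. The authors used MAS5 version 5.0, per the submitters' processing notes, which condenses the probes of a set into a linear intensity. The trimmed mean (without the lowest and highest 2%) was 500 on each array, so that scaling was kept. Detection calls were not used here.

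Groups and replicate numbers came from sample titles. Signals were taken as log2(signal + 32), so changes at low signal are understated. Left out were 64 controls and all sets whose mean signal fell below the 40th percentile (69.6). The groups were fitted with limma 3.58.1 under R 4.3.3 (lmFit, then eBayes with a variance trend; two-sided), with Benjamini-Hochberg adjustment over 27022 probe sets. The fit was checked on simulated data with independent arrays and effects larger than the members' own, which does not cover effects of their size. Of the members' 22 probe sets 19 passed the filter. Names are those of the platform's GEO annotation, where 34945 probe sets name 1 gene, 932 several and 9160 none. All 10 members matched RefSeq's gene table of GRCm38.p6. No positions of genes are given, since that annotation names no build. Named genes were every member and, of each other list, up to 4 with the largest absolute change, plus any gene alone in a count. The members and lists were chosen with earlier results of these data known. Alternatives were quantile normalization, median centring, pseudocounts of 1 and 100, no filter, the 60th percentile as filter, no trend, a replicate block, a mean over probe sets, an adjusted p under 0.1, and leaving out each array. Leaving out an array for the gene lists was added after the data were seen.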

Additional observations from a re-analysis of the deposited data

How the results depend on the processing

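All 10 members kept the sign of their log2 fold change under each of the 13 alternatives that gave one. Much of this was fixed in advance. The filter settings, the fit without the trend and the replicate block left the fold changes themselves unchanged. For a member whose groups do not overlap, neither another pseudocount nor leaving out an array can turn the sign. Without a block, 0 members passed the limma threshold under every alternative that kept all 4 arrays. In those fits 2 to 6 members had an unadjusted limma p under 0.05. Over all tested probe sets, where counted, from 619 of 27022 (without the trend) to 966 of 45037 (without a filter) had such a p. Replicate numbers are not stated to pair the arrays; deviations of same-numbered arrays from their group means correlated at 0.38 over probe sets. With the replicate block 5 members passed (Egr1, Egr2, Egr3, Nr4a3 and Ier2) among 671 probe sets, in a fit with 1 residual degree of freedom and an infinite prior degree of freedom, so that all spread was taken from the trend. Without the block 14 probe sets passed. That count was 0 with quantile normalization (823 at an unadjusted p under 0.05) and 0 without the variance trend (619 at an unadjusted p under 0.05), 47 with median centring, 23 and 6 with pseudocounts of 1 and 100, 89 without a filter, 4 with the 60th percentile and 37 at an adjusted p under 0.1. Leaving out an array gave 0 to 106, with 0 without either immune complex array (690 and 4190 at an unadjusted p under 0.05). The EGR median ranged from 0.64 to 1.67 with an array left out, and the NR4A median from 0.72 to 1.35. Median centring moved the median of all tested probe sets from 0.07 to -0.13. The cause of these shifts was not tested.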

Other observations

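Other genes with as many CRE cores as the NR4A promoters were set beside all genes. Of 10378 tested genes outside the set with a promoter window, 52 had a window with 4 or more cores. Both immune complex arrays lay above both LPS arrays in 5 of them (9.62%, against 13% of all 10378) and below in 8 (15.4%, against 13.2%). Their median log2 fold change was -0.08, against 0.04 over all. With limma none of the 52 passed the threshold, and none had an unadjusted p under 0.05. The 161 tested genes outside the set with a CArG box had a median of -0.01. Of these, 20 were higher on both arrays (12.4%, against 13%) and 23 lower (14.3%, against 13.2%). This comparison was added after the members' promoters had been read and carries no test.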
